A study of Mus musculus with 27 samples.

Results

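The 43 genes described here encode the machinery that separates the chromosomes and divides the cell: the spindle assembly checkpoint, the kinetochore, the chromosomal passenger complex, the mitotic kinases, the anaphase-promoting complex with separase, the spindle motors, the cytokinesis proteins and the proteins that shape mitotic chromosomes. They are grouped here by known role, and their probes were found by the gene name in the scanner files or, where that name was an older one, through the accession beside it or a listed synonym, as for 5 of the genes. All 43 were measured and tested, among 21866 genes in all. None was lost to the filter on dim probes, though Hmmr passed it only through the 24 h groups, where it was high, so its place in any count below supports nothing. Of the 43, 40 were well above background on all 27 arrays. The other 3, Hmmr, Ttk and Cdc25c, were not on some arrays of vehicle or 2 h.

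In mitosis, kinetochores built on the centromeric histone CENP-A attach chromosomes to spindle microtubules, while the spindle checkpoint holds the anaphase-promoting complex (APC/C) inactive until every chromosome is attached. APC/C bound to CDC20 then marks securin for destruction, which frees separase to cut the rings that hold sister chromatids together. The genes for these proteins are transcribed mainly in late S phase, G2 and M, so their RNA in a tissue is widely read as an index of dividing cells. In the uterus of an ovariectomised mouse, where few cells divide, estradiol is known to send epithelial cells through a wave of DNA synthesis and division.

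RNA was measured in whole uterus of 8-week-old female mice whose ovaries had been removed. The strains were C57BL/6 (B6), C3H/HeJ (C3H) and their first-generation hybrid (F1). Each strain had a group given the ethanol and saline vehicle, a group taken 2 h after 1 intraperitoneal injection of 17β-estradiol (E2, 40.0 µg/kg) and a group taken 24 h after it, with no time labelled for vehicle animals. Each of the 9 groups had 3 arrays, 27 in all, from 3 animals per group. Which animal an array came from is not labelled, and p-values therefore measure only the spread between these samples, which may be technical. All animals lacked ovaries, so the comparisons are between absence of ovarian hormone and a single dose of E2. Whole uterus mixes epithelium, stroma, muscle, vessels and blood cells, and in such bulk RNA a change in the number of cells cannot be told apart from a change in RNA per cell.

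A level here is the log2 processed intensity of a gene's probe minus the 75th percentile of its array, so 0 is that percentile, and levels of different genes are not set against each other. A gene is called where limma, fitted to the 9 groups at once, gave an adjusted p (Benjamini-Hochberg, 21866 genes) below 0.05. On each array 72.4% to 79.4% of probes were well above background. Of the 27, 3 arrays stood apart from their group, with over 250 genes more than 1 log2 unit from the group mean. These were replicate 1 of C3H at 24 h with 496 genes, replicate 1 of B6 vehicle with 436 and replicate 1 of C3H at 2 h with 296. Without these 3 arrays, 42 of the 43 genes were still called at 24 h in each strain, and their effect on other counts is given with each comparison. All 8 genes chosen to mark uterus, such as Esr1 and Pgr, were measured and above background in every group. With 3 arrays a group, that number limits the precision.

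Nearly the whole group rose within a day of E2. At 24 h, 41 of the 43 genes were higher than in vehicle in B6 (95.3%), 42 in C3H (97.7%) and 41 in F1. Over all genes tested, 30.8% were called higher in B6, 27.1% in C3H and 31.8% in F1, and 37.2%, 40% and 36.7% were called lower. The median change of the 43 genes was 2.90 log2 units in B6, 2.39 in C3H and 3.17 in F1, where the median of all genes was -0.05, -0.16 and -0.03. A rise of at least 2-fold was called for 38, 39 and 38 of the 43 genes, and the share of all genes with such a rise was not computed. The exceptions were Cdc25b, whose changes were 0.02 in B6, -0.14 in C3H and -0.39 in F1, and Pttg1, with -0.55 in B6, 1.27 in C3H and -0.12 in F1. Of these 6 values, those below 0 were called for Pttg1 in B6 and Cdc25b in F1, and the rise of Pttg1 in C3H was called. Leaving out any 1 array of these comparisons kept all 42 calls in each strain. Counting only calls kept under every alternative tried, 32 remained in B6, 29 in C3H and 32 in F1. Scaling moved the balance of the whole array: of all calls in B6, 45.3% were higher, and 60.7% with arrays centred on their median. That share went from 40.4% to 54.8% in C3H and from 46.4% to 59.8% in F1, and the all-gene median moved to 0.18 in B6 and 0.17 in F1. Under that centring 42, 42 and 41 of the 43 mitosis genes were called.

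**Figure D1:**
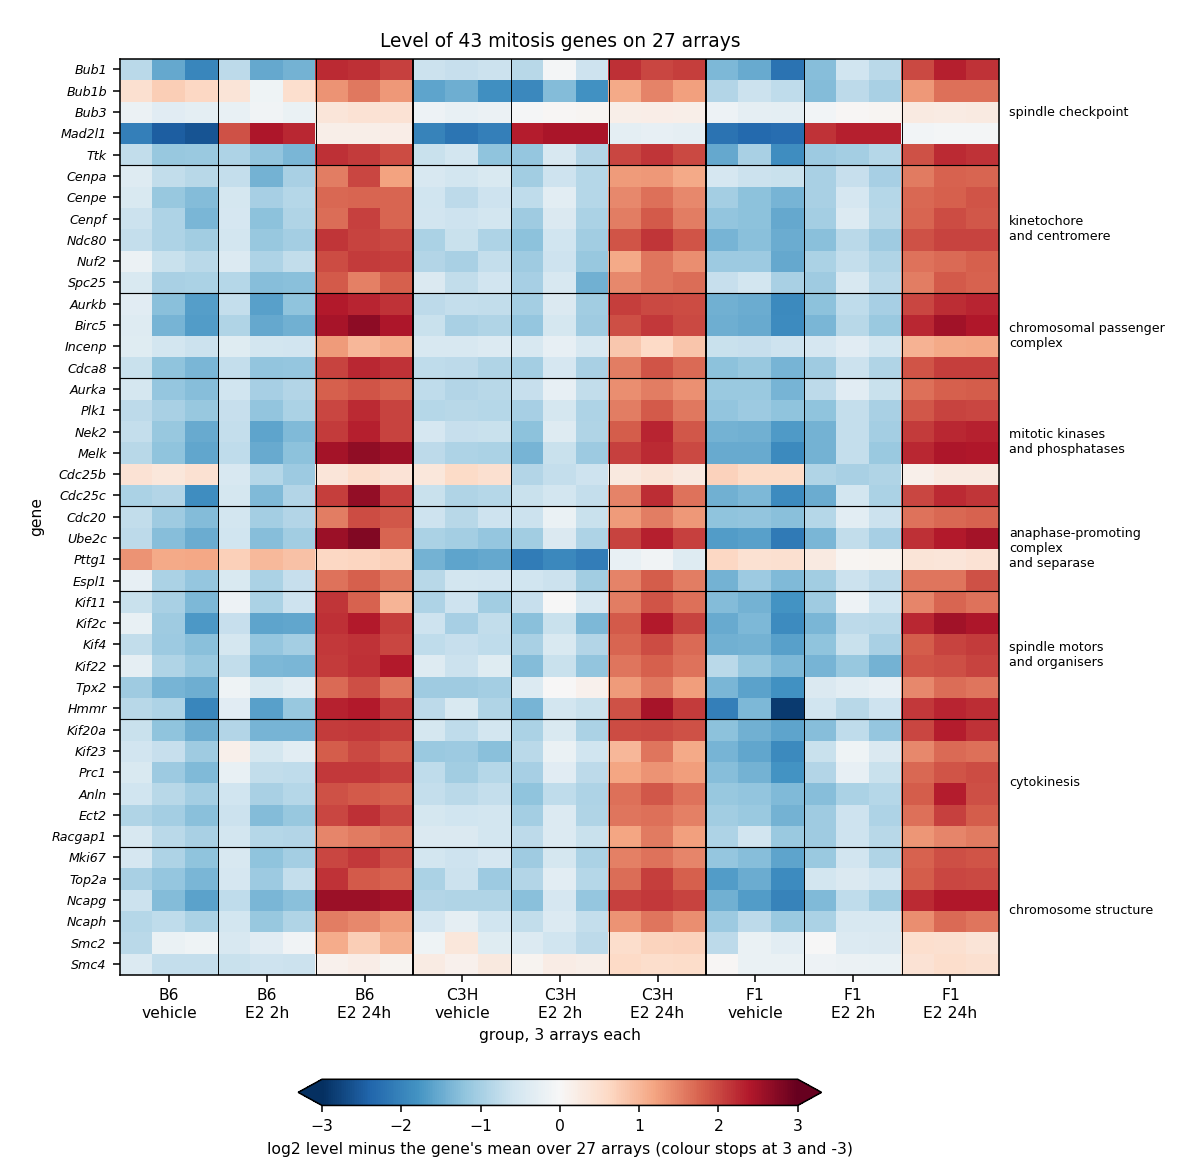
Heat map of 43 mitosis genes (rows, grouped by role) on 27 arrays (columns, 3 per group); colour is the log2 level minus the gene's own mean over the 27 arrays. The 24 h columns are red for nearly every row, Mad2l1 is highest in the 2 h columns, and Bub1b and Pttg1 are low in C3H vehicle and 2 h columns.

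**Figure D2:**
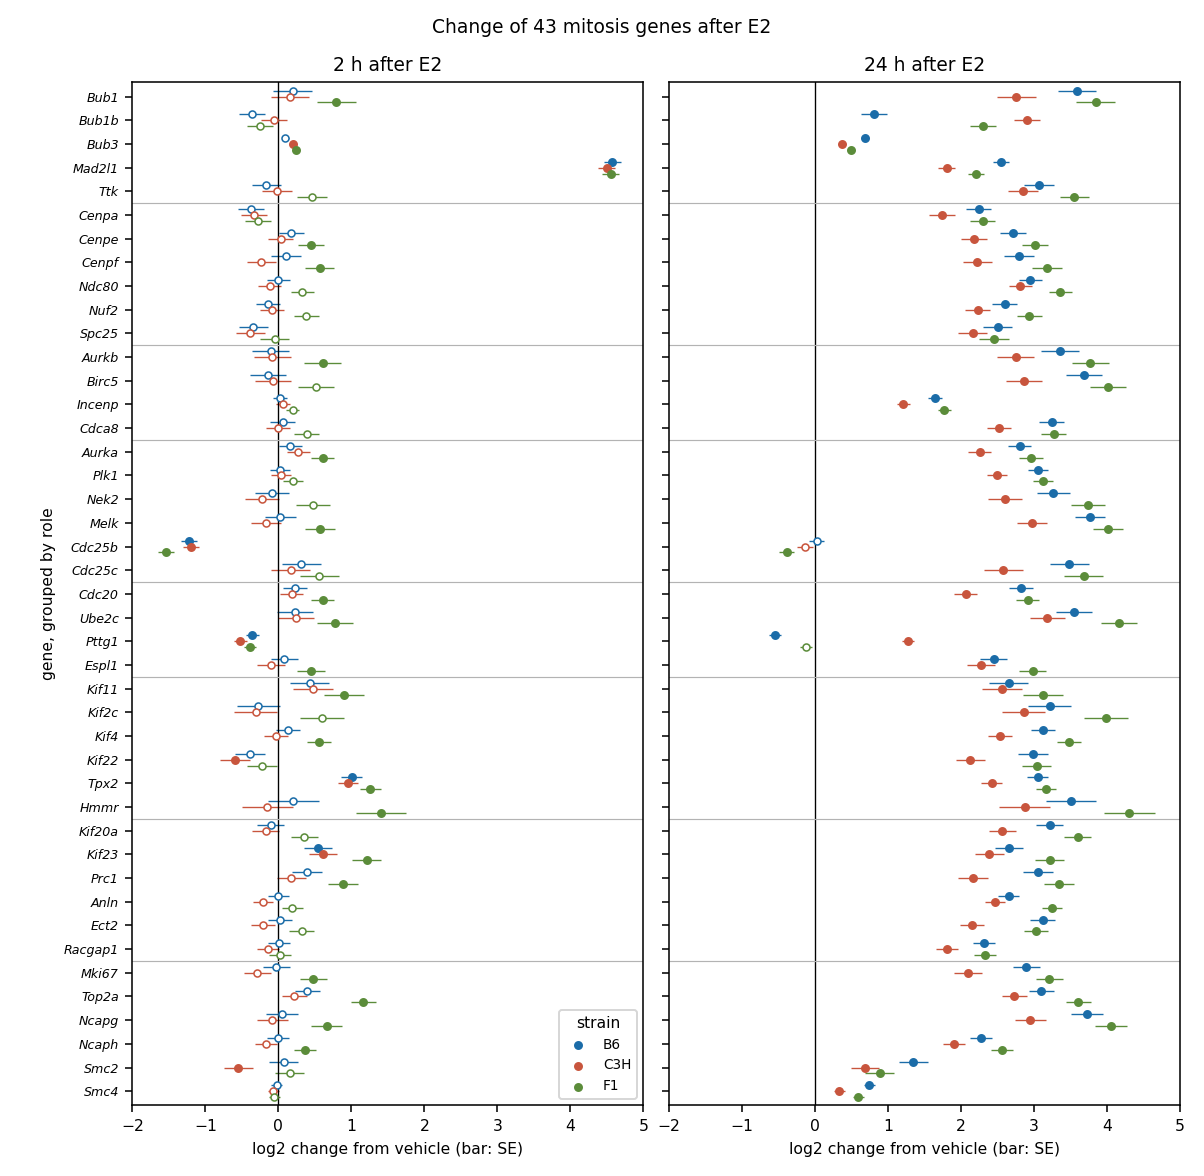
Log2 change from vehicle (x axis, bars are limma standard errors) of each gene in B6, C3H and F1 at 2 h (left) and 24 h (right); filled points have an adjusted p under 0.05. At 24 h most genes lie between 2 and 4 log2 units, and at 2 h most lie near 0 except Mad2l1, which is above 4 in every strain.

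The spindle checkpoint genes all rose at 24 h, 5 of 5 in each strain, with medians of 2.55, 2.76 and 2.30 in B6, C3H and F1. Bub1, the kinase that recruits other checkpoint proteins to kinetochores, had the largest mean change over the 3 strains. In B6, Bub1 stood at -3.63, -4.36 and -4.77 on the vehicle arrays and -0.59, -0.63 and -0.78 on the arrays of 24 h after E2. In C3H, Bub1 read -3.47, -3.51 and -3.47 on the vehicle arrays and -0.63, -0.81 and -0.74 on the arrays of 24 h after E2. In F1, Bub1 measured -4.16, -4.33 and -5.03 on the vehicle arrays and -0.84, -0.48 and -0.66 on the arrays of 24 h after E2. No array of 24 h overlapped the vehicle arrays of its strain. Its change was 3.59 in B6, 2.76 in C3H and 3.85 in F1 (SE 0.27, adjusted p at most 1.64e-08), or 12-fold in B6. Ttk, the kinase that starts checkpoint signalling, rose by 3.07 in B6, 2.86 in C3H and 3.56 in F1, where its probe was well above background on 3, 2 and 1 of the vehicle arrays. Bub3, the adaptor that docks Bub1 and Bub1b at kinetochores, moved least. In B6, Bub3 stood at 2.71, 2.55 and 2.59 on the vehicle arrays and 3.24, 3.32 and 3.33 on the arrays of 24 h after E2. In C3H, Bub3 read 2.73, 2.66 and 2.70 on the vehicle arrays and 3.07, 3.09 and 3.05 on the arrays of 24 h after E2. In F1, Bub3 measured 2.72, 2.61 and 2.60 on the vehicle arrays and 3.14, 3.14 and 3.15 on the arrays of 24 h after E2. The groups did not overlap in any strain. The Bub3 change was small, 0.68 in B6, 0.37 in C3H and 0.50 in F1 (SE 0.05), and depended on the probe: with the mean over its 3 passing probes it turned to -0.02, -0.12 and -0.07. Mad2l1 and Bub1b had patterns of their own and are described with the 2 h and the strain comparisons.

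Genes of the kinetochore and centromere rose together as well, 6 of 6 in each strain, with median changes of 2.65, 2.20 and 2.98. Ndc80, the microtubule-binding subunit that gives the outer kinetochore complex its name, had the largest mean change. In B6, Ndc80 stood at -3.77, -3.98 and -4.09 on the vehicle arrays and -0.90, -1.03 and -1.06 on the arrays of 24 h after E2. In C3H, Ndc80 read -4.00, -3.72 and -3.98 on the vehicle arrays and -1.17, -0.92 and -1.16 on the arrays of 24 h after E2. In F1, Ndc80 measured -4.44, -4.30 and -4.54 on the vehicle arrays and -1.14, -1.02 and -1.04 on the arrays of 24 h after E2. Ndc80 was higher on every 24 h array than on any vehicle array of the strain. Ndc80 rose by 2.95 in B6, 2.81 in C3H and 3.36 in F1 (SE 0.16, adjusted p at most 7.37e-12). Its partners Nuf2 and Spc25 rose by 2.60 in B6, 2.23 in C3H and 2.94 in F1 and by 2.50 in B6, 2.16 in C3H and 2.45 in F1. The kinetochore motor Cenpe and the large outer kinetochore protein Cenpf rose by 2.71 and 2.80 in B6. Cenpa, the histone H3 variant of centromeres, changed least of the 6. In B6, Cenpa stood at -2.43, -2.77 and -2.87 on the vehicle arrays and -0.49, -0.02 and -0.82 on the arrays of 24 h after E2. In C3H, Cenpa read -2.51, -2.58 and -2.50 on the vehicle arrays and -0.76, -0.72 and -0.89 on the arrays of 24 h after E2. In F1, Cenpa measured -2.54, -2.66 and -2.70 on the vehicle arrays and -0.48, -0.26 and -0.28 on the arrays of 24 h after E2. Vehicle and 24 h arrays of Cenpa were apart in all 3 strains. Its change was 2.24 in B6, 1.74 in C3H and 2.30 in F1 (SE 0.18).

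The chromosomal passenger complex, which corrects faulty attachments and later helps the cell cleave, rose as a unit: 4 of 4 in each strain, medians 3.30, 2.64 and 3.52. Birc5, or survivin, showed the largest change. In B6, Birc5 stood at 1.02, 0.00 and -0.26 on the vehicle arrays and 3.87, 4.10 and 3.84 on the arrays of 24 h after E2. In C3H, Birc5 read 0.74, 0.43 and 0.52 on the vehicle arrays and 3.35, 3.53 and 3.38 on the arrays of 24 h after E2. In F1, Birc5 measured -0.06, -0.10 and -0.49 on the vehicle arrays and 3.66, 3.93 and 3.81 on the arrays of 24 h after E2. Each strain showed the same separation, with every 24 h array of Birc5 above vehicle. Birc5 rose by 3.68 in B6, 2.86 in C3H and 4.02 in F1 (SE 0.25), which is 16.2-fold in F1. Its kinase Aurkb rose by 3.36 in B6, 2.75 in C3H and 3.77 in F1, and Cdca8, or borealin, by 3.24 in B6, 2.52 in C3H and 3.27 in F1. The scaffold Incenp had the smallest change of the complex. In B6, Incenp stood at 2.24, 2.05 and 1.96 on the vehicle arrays and 3.87, 3.60 and 3.71 on the arrays of 24 h after E2. In C3H, Incenp read 2.11, 2.11 and 2.19 on the vehicle arrays and 3.42, 3.21 and 3.43 on the arrays of 24 h after E2. In F1, Incenp measured 1.94, 1.91 and 1.97 on the vehicle arrays and 3.64, 3.74 and 3.76 on the arrays of 24 h after E2. In each strain all 3 arrays of 24 h lay above all 3 of vehicle. That is 1.64 in B6, 1.21 in C3H and 1.77 in F1 (SE 0.09).

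Among mitotic kinases and phosphatases, 5 of 6 rose at 24 h in each strain, with medians of 3.16, 2.54 and 3.40. Melk, a kinase abundant in dividing progenitor cells, had the largest mean change. In B6, Melk stood at -2.38, -2.75 and -3.09 on the vehicle arrays and 0.96, 1.13 and 0.99 on the arrays of 24 h after E2. In C3H, Melk read -2.32, -2.46 and -2.49 on the vehicle arrays and 0.51, 0.69 and 0.44 on the arrays of 24 h after E2. In F1, Melk measured -3.04, -3.06 and -3.46 on the vehicle arrays and 0.72, 0.90 and 0.87 on the arrays of 24 h after E2. No array of 24 h overlapped the vehicle arrays of its strain. Its change was 3.77 in B6, 2.97 in C3H and 4.02 in F1 (SE 0.21). The centrosome kinases Aurka and Nek2 rose by 2.81 in B6, 2.26 in C3H and 2.96 in F1 and by 3.27 in B6, 2.60 in C3H and 3.75 in F1, and Plk1, which acts at centrosomes, kinetochores and the cleavage furrow, by 3.05 in B6, 2.49 in C3H and 3.12 in F1. Cdc25c, a phosphatase that activates CDK1, rose by 3.48 in B6, 2.58 in C3H and 3.68 in F1, with 1 F1 vehicle array not well above background. Its relative Cdc25b is described with the 2 h changes.

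Of the 4 genes around the anaphase-promoting complex, Cdc20, Ube2c and Espl1 rose in every strain. Ube2c, the ubiquitin-conjugating enzyme of APC/C, changed most. In B6, Ube2c stood at -1.88, -2.37 and -2.58 on the vehicle arrays and 1.47, 1.69 and 0.66 on the arrays of 24 h after E2. In C3H, Ube2c read -2.05, -2.10 and -2.25 on the vehicle arrays and 0.94, 1.25 and 0.97 on the arrays of 24 h after E2. In F1, Ube2c measured -2.77, -2.71 and -3.21 on the vehicle arrays and 1.11, 1.29 and 1.42 on the arrays of 24 h after E2. The groups did not overlap in any strain. The change was 3.55 in B6, 3.19 in C3H and 4.17 in F1 (SE 0.25). Cdc20, the activator that the checkpoint holds back, rose by 2.82 in B6, 2.07 in C3H and 2.91 in F1, and Espl1, or separase, by 2.45 in B6, 2.27 in C3H and 2.98 in F1. Pttg1, or securin, the inhibitor of separase, differed by strain and is described with Bub1b.

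Spindle motors and organisers rose in 6 of 6 cases in each strain, with medians of 3.09, 2.55 and 3.33. Hmmr, a microtubule-binding organiser of spindle poles, had the largest fitted mean change of the class, a rank that rests in part on F1 vehicle arrays where it was not measured above background. In B6, Hmmr stood at -6.70, -6.78 and -7.82 on the vehicle arrays and -3.54, -3.47 and -3.75 on the arrays of 24 h after E2. In C3H, Hmmr read -6.65, -6.33 and -6.77 on the vehicle arrays and -3.96, -3.39 and -3.76 on the arrays of 24 h after E2. In F1, Hmmr measured -7.92, -7.22 and -8.73 on the vehicle arrays and -3.74, -3.57 and -3.64 on the arrays of 24 h after E2. Its 24 h arrays lay above the vehicle arrays of the strain. Hmmr passed the filter on dim probes only through the 24 h groups, so that separation supports nothing. In B6 and C3H its change was 3.51 and 2.88 (SE 0.35), with 2 of 3 vehicle arrays well above background in each. In F1 vehicle it was not well above background on any of the 3 arrays, so the rise there is given as at least 8.6-fold. Kif2c, a microtubule-depolymerising motor measured above background on every array, rose by 3.22 in B6, 2.86 in C3H and 3.99 in F1. The motors Kif11 and Kif4 rose by 2.65 and 3.13 in B6. Kif22, a chromosome-arm motor, had the smallest mean change of the 6. In B6, Kif22 stood at 0.49, -0.16 and -0.36 on the vehicle arrays and 2.85, 2.95 and 3.13 on the arrays of 24 h after E2. In C3H, Kif22 read 0.37, 0.12 and 0.40 on the vehicle arrays and 2.35, 2.54 and 2.38 on the arrays of 24 h after E2. In F1, Kif22 measured -0.06, -0.37 and -0.58 on the vehicle arrays and 2.65, 2.68 and 2.77 on the arrays of 24 h after E2. Vehicle and 24 h arrays of Kif22 were apart in all 3 strains. Its change was 2.99 in B6, 2.13 in C3H and 3.04 in F1 (SE 0.20).

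Cytokinesis genes rose in 6 of 6 cases in each strain, with medians of 2.86, 2.28 and 3.23. Kif20a, a motor of the central spindle, changed most. In B6, Kif20a stood at 0.09, -0.45 and -0.71 on the vehicle arrays and 2.86, 2.89 and 2.83 on the arrays of 24 h after E2. In C3H, Kif20a read 0.23, 0.01 and 0.20 on the vehicle arrays and 2.73, 2.75 and 2.66 on the arrays of 24 h after E2. In F1, Kif20a measured -0.47, -0.69 and -0.82 on the vehicle arrays and 2.78, 3.12 and 2.93 on the arrays of 24 h after E2. Each strain showed the same separation, with every 24 h array of Kif20a above vehicle. The rise was 3.22 in B6, 2.57 in C3H and 3.60 in F1 (SE 0.18). Prc1, which bundles the microtubules of the central spindle, rose by 3.06 in B6, 2.16 in C3H and 3.35 in F1, and the furrow scaffold Anln by 2.65 in B6, 2.47 in C3H and 3.25 in F1. Ect2, the exchange factor that switches on RhoA at the furrow, rose by 3.12 in B6, 2.15 in C3H and 3.03 in F1. Its partner Racgap1 changed least. In B6, Racgap1 stood at -2.93, -3.27 and -3.42 on the vehicle arrays and -0.99, -0.89 and -0.81 on the arrays of 24 h after E2. In C3H, Racgap1 read -2.89, -2.89 and -3.01 on the vehicle arrays and -1.26, -0.90 and -1.21 on the arrays of 24 h after E2. In F1, Racgap1 measured -3.38, -3.03 and -3.57 on the vehicle arrays and -1.13, -0.98 and -0.90 on the arrays of 24 h after E2. In each strain all 3 arrays of 24 h lay above all 3 of vehicle. This is 2.31 in B6, 1.81 in C3H and 2.32 in F1 (SE 0.15).

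Genes for chromosome structure also rose in 6 of 6 cases in each strain, with medians of 2.59, 2.00 and 2.89, with a split in size. Ncapg, a subunit specific to condensin I, was at the top. In B6, Ncapg stood at -1.30, -1.94 and -2.26 on the vehicle arrays and 1.91, 1.93 and 1.84 on the arrays of 24 h after E2. In C3H, Ncapg read -1.52, -1.56 and -1.55 on the vehicle arrays and 1.40, 1.46 and 1.37 on the arrays of 24 h after E2. In F1, Ncapg measured -2.10, -2.32 and -2.65 on the vehicle arrays and 1.59, 1.76 and 1.76 on the arrays of 24 h after E2. No array of 24 h overlapped the vehicle arrays of its strain. Its change was 3.73 in B6, 2.95 in C3H and 4.06 in F1 (SE 0.22). The condensin I subunit Ncaph rose by 2.28 in B6, 1.90 in C3H and 2.56 in F1, the proliferation marker Mki67 by 2.90 in B6, 2.10 in C3H and 3.21 in F1 and topoisomerase Top2a by 3.10 in B6, 2.73 in C3H and 3.61 in F1. The core condensin ATPases, which both condensins share, changed less: Smc2 rose by 1.35 in B6, 0.69 in C3H and 0.89 in F1, and Smc4 least. In B6, Smc4 stood at 2.28, 1.97 and 1.97 on the vehicle arrays and 2.82, 2.88 and 2.76 on the arrays of 24 h after E2. In C3H, Smc4 read 2.94, 2.83 and 2.98 on the vehicle arrays and 3.28, 3.23 and 3.25 on the arrays of 24 h after E2. In F1, Smc4 measured 2.73, 2.50 and 2.49 on the vehicle arrays and 3.13, 3.21 and 3.17 on the arrays of 24 h after E2. The groups did not overlap in any strain. Smc4 changed by 0.74 in B6, 0.34 in C3H and 0.59 in F1 (SE 0.08). Along with Bub3, and with Bub1b in B6, Smc2 and Smc4 were the risers that stayed under 2-fold in some strain.

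Markers of uterine cell types moved too. Of 9 epithelial markers, 7, 7 and 7 rose at 24 h in B6, C3H and F1 and 2 fell, and none was missing. Their mean level over the vehicle arrays was 2.41 to 2.51 in B6, 2.44 to 2.53 in C3H and 2.38 to 2.65 in F1, and over the 24 h arrays 3.45 to 3.52, 3.16 to 3.31 and 3.39 to 3.60. Krt8, a keratin of simple epithelium, was 1 of the 7 that rose in B6, by 1.85, where 2 of the list fell. All 8 stromal markers fell at 2 h in each strain, and at 24 h 3, 2 and 2 were higher and 4, 6 and 5 lower. Of 8 muscle markers 5, 5 and 7 rose at 24 h, and of 7 endothelial ones 6, 3 and 6 fell. Of 8 macrophage markers 1, 5 and 3 rose and 2, 0 and 0 fell, of 7 measured neutrophil and eosinophil markers 0, 1 and 1 rose and 3, 2 and 1 fell, and of 8 lymphocyte markers 3, 4 and 3 fell. Over all genes 30.8%, 27.1% and 31.8% were higher at 24 h and 37.2%, 40% and 36.7% lower, so the falls among lymphocyte markers were near those of all genes. At 2 h, where all stromal markers fell, 33.1%, 35.4% and 35.4% of all genes were lower. Mmp8 and Cxcr2, of the neutrophil list, were not well above background in F1 vehicle. The part of these cell types in the 24 h rise was not tested.

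Because these genes moved together, their promoters were searched for 2 motifs known from cell cycle genes and for estrogen response elements. RefSeq promoters on GRCm38.p6 (250 bases before to 50 after the start) were at hand for 37 of the 43 genes, as 40 sequences, among 32851 for all genes; Aurkb, Cdc25c, Incenp, Kif20a, Smc4 and Tpx2 had no entry. The letters TTTGAA, on either strand, are the core of the cell cycle genes homology region (CHR), which the DREAM and MuvB complexes are known to bind. They were in 30 of the 40 sequences (75%) and in 17.9% of all promoters. CCAAT, the box bound by NF-Y, was in 31 (77.5%) against 37.4% of all, and both were in 27 (67.5%) against 6.95%. The other CHR form, TTTAAA, was in 8 (20%) against 13.2%. These shares are descriptions, and a match is not a bound site. The 60 bases before the start of 6 genes with both motifs there are shown, 5′ to 3′ on the gene's strand, with each CHR core and NF-Y box on either strand in capitals (TTCAAA and ATTGG are their reverse complements):
Cdc20 (chr4:118437344-118437403, minus strand): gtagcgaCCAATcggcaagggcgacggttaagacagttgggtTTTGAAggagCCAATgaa
Ube2c (chr2:164769869-164769928, plus strand): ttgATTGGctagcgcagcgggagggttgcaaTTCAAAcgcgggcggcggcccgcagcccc
Espl1 (chr15:102296233-102296292, plus strand): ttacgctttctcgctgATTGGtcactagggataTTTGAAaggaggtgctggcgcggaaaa
Kif11 (chr19:37376322-37376381, plus strand): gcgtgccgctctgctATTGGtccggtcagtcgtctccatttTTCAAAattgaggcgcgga
Kif22 (chr7:127042421-127042480, minus strand): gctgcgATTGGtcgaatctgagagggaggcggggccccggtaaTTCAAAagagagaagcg
Top2a (chr11:99024190-99024249, minus strand): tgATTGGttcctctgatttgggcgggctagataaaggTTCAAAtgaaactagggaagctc

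**Figure D3:**
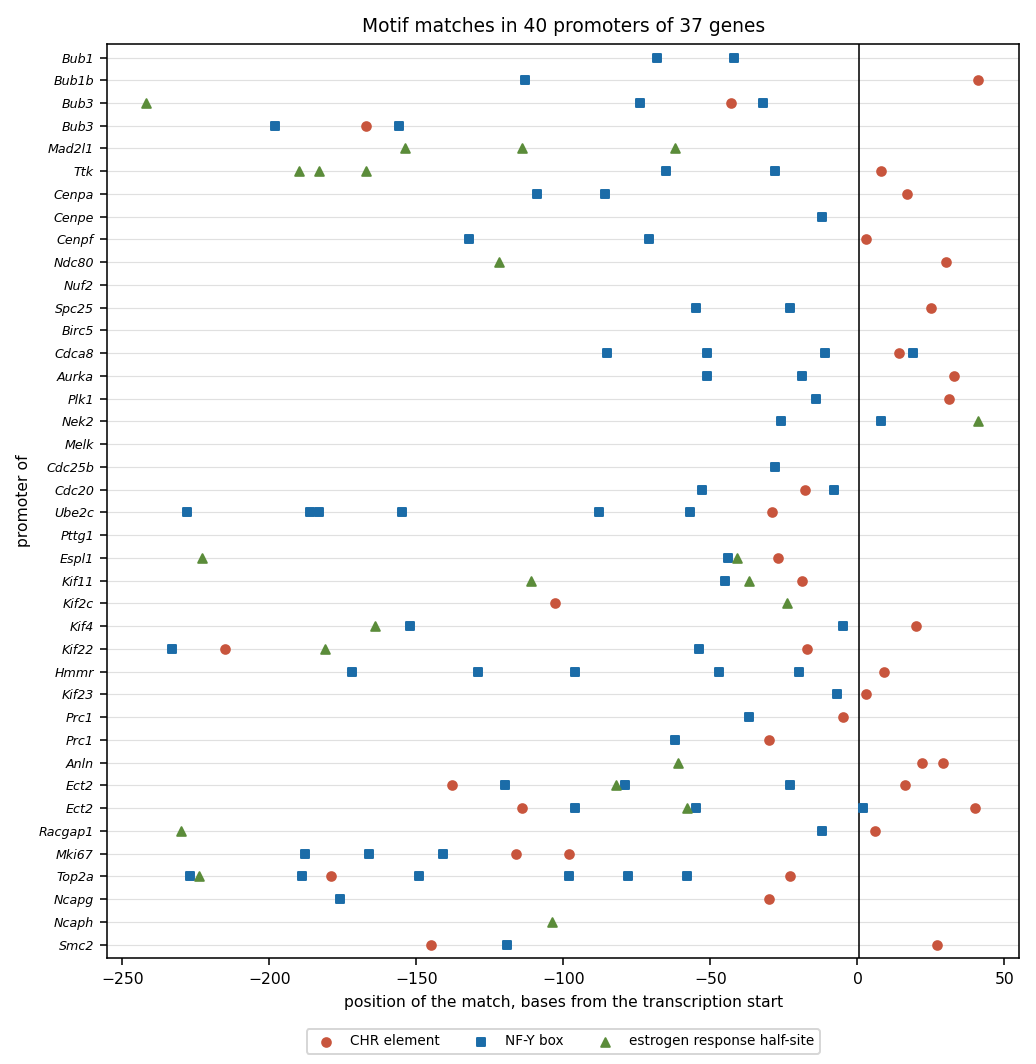
Positions of matches to the CHR core (circles), NF-Y box (squares) and estrogen response half-site (triangles) in 40 promoters of 37 genes, in bases from the transcription start (vertical line). Most CHR matches lie close to the start, with most NF-Y boxes before it, while Mad2l1 has 3 half-sites and neither of the others, and Pttg1, Nuf2, Melk and Birc5 have none of the 3.

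The full palindromic estrogen response element, GGTCA and TGACC with 3 bases between, was in 0 of the 40 sequences and in 0.07% of all promoters. The half-site GGTCA on either strand was in 16 (40%) against 40.5% of all, and 3 or more of them were in 2 (5%; Mad2l1 and Ttk) against 2.35%. The promoter of Mad2l1, the gene with the largest 2 h change, held 3 half-sites and neither form of the CHR nor an NF-Y box. Ttk changed at 2 h by -0.16 in B6, -0.02 in C3H and 0.46 in F1. Birc5, Melk, Ncaph, Nuf2 and Pttg1 also held neither TTTGAA nor an NF-Y box. Their 2 h changes in B6 were -0.14, 0.03, -0.01, -0.14 and -0.36 in that order. In F1 they were 0.52, 0.56, 0.36, 0.38 and -0.39. The part of these motifs in the 2 h changes was not tested. The 120 bases from 160 to 41 before the start of Mad2l1 are shown with the half-sites in capitals, all on the strand of the gene:
Mad2l1 (chr6:66535061-66535180, plus strand): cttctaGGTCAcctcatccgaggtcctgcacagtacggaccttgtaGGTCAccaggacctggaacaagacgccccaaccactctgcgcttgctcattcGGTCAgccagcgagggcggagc

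At 2 h few of these genes were called in B6 and C3H, and more in F1. Of the 43, those called higher were 3 in B6 (6.98%), 4 in C3H (9.3%) and 21 in F1 (48.8%), against 23.1%, 24.9% and 23.7% of all genes. Lower calls numbered 2, 4 and 2, against 33.1%, 35.4% and 35.4%. Median changes of the group were 0.03, -0.08 and 0.46 log2 units, beside -0.08, -0.10 and -0.10 for all genes. In B6 and C3H the share called, in either direction, was thus below that of all genes. Mad2l1, Tpx2 and Kif23 rose in all 3 strains, and Cdc25b and Pttg1 fell in all 3. The other calls outside F1 were all in C3H, where Bub3 was higher (0.20) and Kif22 (-0.59) and Smc2 (-0.55) were lower, and of these Kif22 and Smc2 lost the call when some single array was left out.

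Mad2l1, the checkpoint protein that captures CDC20, was set apart from the rest of the group by its time course, a pattern that was known when the group was put together. In B6, Mad2l1 stood at -1.29, -1.73 and -1.85 on the vehicle arrays and 2.66, 3.19 and 3.00 on the arrays of 2 h after E2. In C3H, Mad2l1 read -1.26, -1.43 and -1.31 on the vehicle arrays and 3.11, 3.19 and 3.19 on the arrays of 2 h after E2. In F1, Mad2l1 measured -1.46, -1.58 and -1.54 on the vehicle arrays and 2.91, 3.07 and 3.09 on the arrays of 2 h after E2. The groups did not overlap, and every 2 h array stood far above every vehicle array. Its change was 4.57 in B6, 4.50 in C3H and 4.55 in F1 (SE 0.12, adjusted p at most 2.36e-17), or 23.8-, 22.6- and 23.5-fold. At 24 h it had come down to 0.92, 0.92 and 0.94 on the B6 arrays, 0.45, 0.50 and 0.48 on the C3H arrays and 0.67, 0.68 and 0.69 on the F1 arrays. These levels were still 5.85-, 3.5- and 4.62-fold above vehicle. Its other probe gave 2 h changes of 4.62, 4.54 and 4.63. Among the other genes measured above background on all arrays, the largest 2 h rise was 1.26, for Tpx2 in F1.

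The genes most like Mad2l1 in their 9 group means were not mitosis genes. Among all genes with a symbol, the highest Pearson r over the 9 means was that of Pde12 (0.997), followed by Tex2, Akt1, Snu13 and Hspb8 (each 0.996 after rounding). Pde12 encodes a mitochondrial phosphodiesterase, Akt1 a growth kinase, Snu13 a small nucleolar and spliceosomal RNA-binding protein and Hspb8 a small heat shock protein. Pde12 rose by 2.47, 2.59 and 2.84 at 2 h and by 1.52, 1.02 and 1.31 at 24 h. Akt1 rose by 1.17, 1.06 and 1.24 at 2 h. The likeness is a description over 9 group means, picked as the highest of all genes.

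Tpx2, which activates Aurora A and nucleates microtubules around chromosomes, rose early and went on rising. In B6, Tpx2 stood at -2.35, -2.67 and -2.73 on the vehicle arrays and -1.40, -1.74 and -1.60 on the arrays of 2 h after E2. In C3H, Tpx2 read -2.34, -2.34 and -2.29 on the vehicle arrays and -1.69, -1.26 and -1.16 on the arrays of 2 h after E2. In F1, Tpx2 measured -2.66, -2.88 and -3.09 on the vehicle arrays and -1.72, -1.60 and -1.52 on the arrays of 2 h after E2. Tpx2 was higher on every 2 h array than on any vehicle array of the strain. The 2 h change was 1.00 in B6, 0.95 in C3H and 1.26 in F1 (SE 0.14, adjusted p at most 6.31e-06), and the 24 h change 3.05 in B6, 2.42 in C3H and 3.17 in F1. Kif23, a motor of the central spindle, showed a smaller early rise. In B6, Kif23 stood at -2.15, -2.26 and -2.63 on the vehicle arrays and -1.42, -2.10 and -1.89 on the arrays of 2 h after E2. In C3H, Kif23 read -2.67, -2.65 and -2.83 on the vehicle arrays and -2.39, -1.77 and -2.16 on the arrays of 2 h after E2. In F1, Kif23 measured -2.96, -3.12 and -3.48 on the vehicle arrays and -2.23, -1.70 and -1.99 on the arrays of 2 h after E2. Vehicle and 2 h arrays of Kif23 were apart in all 3 strains. Its 2 h change was 0.54 in B6, 0.61 in C3H and 1.21 in F1 (SE 0.20, adjusted p at most 0.024), and its 24 h change 2.66 in B6, 2.39 in C3H and 3.21 in F1. Among the genes called at 2 h in all 3 strains, only Kif23 lost a call when single arrays were left out. Its limma adjusted p became 0.158 without B6 E2 2 h replicate 1, 0.125 without B6 vehicle replicate 3 and 0.0773 in C3H without C3H E2 2 h replicate 2. With normexp background correction the Kif23 calls were lost in all 3 strains, at changes of 0.63, 0.04 and 0.22. Over all alternatives together, 2 of the 5 calls at 2 h in B6, 2 of 8 in C3H and 2 of 23 in F1 were kept. Calls other than those of Kif23 were thus lost as well.

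Cdc25b, a phosphatase that activates CDK1 at the entry to mitosis, went against the group. In B6, Cdc25b stood at 2.03, 1.94 and 2.05 on the vehicle arrays and 1.11, 0.73 and 0.50 on the arrays of 2 h after E2. In C3H, Cdc25b read 1.92, 2.16 and 2.07 on the vehicle arrays and 0.72, 0.88 and 0.96 on the arrays of 2 h after E2. In F1, Cdc25b measured 2.28, 2.17 and 2.17 on the vehicle arrays and 0.68, 0.61 and 0.70 on the arrays of 2 h after E2. In each strain every 2 h array lay below every vehicle array. It fell by 1.22 in B6, 1.20 in C3H and 1.54 in F1 (SE 0.11, adjusted p at most 4.3e-09), and its 3 passing probes all fell. At 24 h it was back near vehicle, at 1.95, 2.13 and 2.01 on the B6 arrays, 1.87, 1.98 and 1.89 on the C3H arrays and 1.74, 1.87 and 1.86 on the F1 arrays. Its probes differed in sign there, so no direction is drawn from the call in F1.

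The 21 higher calls at 2 h in F1 came with low vehicle levels, which enter the 2 h change itself. The part of the vehicle levels in the calls was not tested. Aurka, Cdc20, Prc1 and Top2a were among the 21 genes, with changes of 0.61, 0.61, 0.89 and 1.16. Hmmr, counted with them, was at least 1.15-fold higher, with 1 of 3 arrays at 2 h and none of vehicle well above background. Top2a stood at -3.36, -3.17 and -3.57 on the F1 vehicle arrays and -2.25, -2.12 and -2.25 at 2 h, and at -2.66, -2.85 and -3.05 and -2.20, -2.78 and -2.39 in B6. Over the 43 genes, the median level difference of F1 from B6 was -0.34 in vehicle and 0.08 at 2 h, and from C3H -0.55 in vehicle and -0.07 at 2 h. Tests of the 2 h response itself between strains called none of the 43, 0 each for C3H against B6, for F1 against B6 and for F1 against C3H, where 2.18%, 0.585% and 0.229% of all genes were called by limma. At an unadjusted p under 0.05, limma had 1, 6 and 15 of the 43, in the same order of comparisons. Of all 21866 genes, 3295, 2481 and 2013 had such a p. The share of the 43 was thus below that of all genes for C3H against B6. It was near that share for F1 against B6 and above it for F1 against C3H. The F1 count was also unsteady: members called fell from 23 to 11 without F1 E2 2 h replicate 2 and to 13 without F1 vehicle replicate 3. It fell to 3 with normexp background correction, where 8 of the 23 had the opposite sign, and was 35 on unscaled arrays. Slide 6 held both groups but only 1 F1 vehicle array, so no count within it is given. Scaling again moved the balance over all genes at 2 h: 40.1% of calls in F1 were higher, 51.7% with median centring and 60.6% unscaled, and in C3H 41.3%, 53.0% and 56.2%. In B6 the count of 5 became 10 without B6 vehicle replicate 1 and 10 without the 3 arrays that stood apart. Slide 1 held both groups but only 1 B6 array of 2 h, so no count within it is given.

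**Figure D4:**
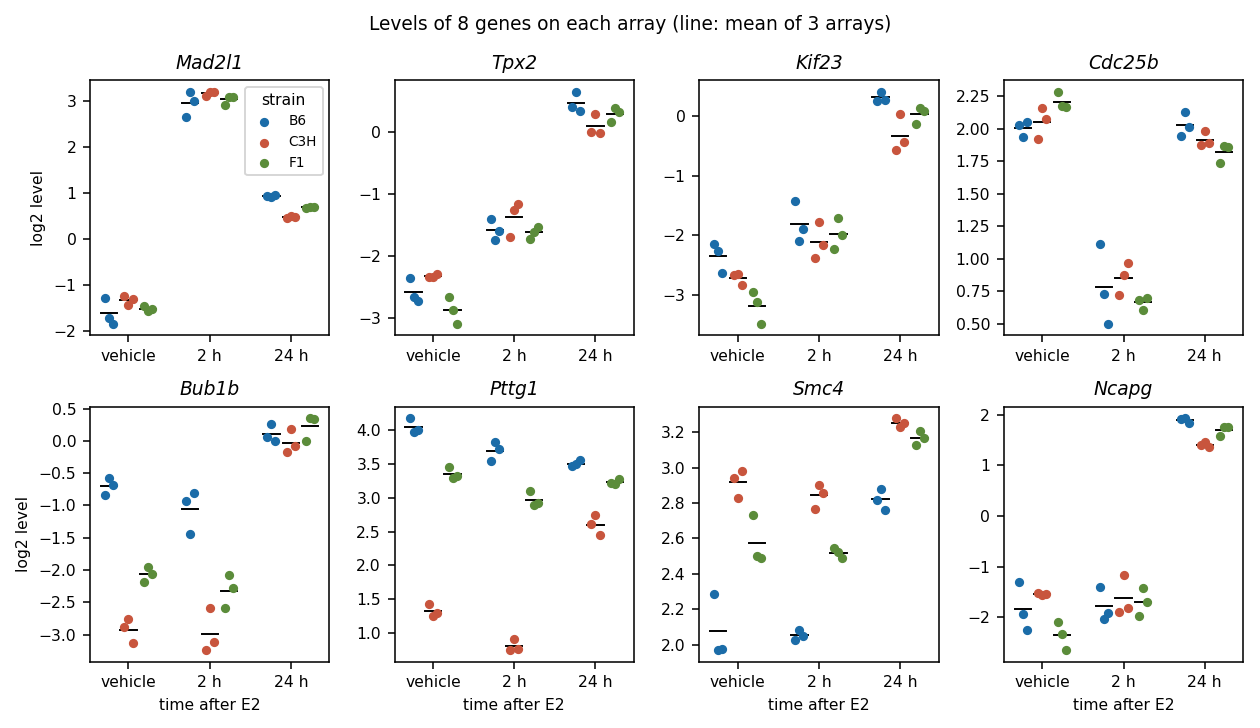
Log2 level of 8 genes on every array (points; line, mean of 3 arrays) by time after E2 and strain, each panel with its own y axis. Mad2l1 peaks at 2 h, Cdc25b dips at 2 h, Bub1b and Pttg1 differ by strain in vehicle, and Ncapg shows the common pattern of a rise at 24 h.

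Before E2, the strains differed in a few of these genes, with the largest differences in Bub1b and Pttg1. In C3H against B6 vehicle, 3 of 43 were higher and 2 lower, beside 13% and 11.1% of all genes. Bub1b, the checkpoint protein BubR1, was the gene whose strain difference was known beforehand. In vehicle it stood at -0.83, -0.57 and -0.68 on the B6 arrays, -2.88, -2.77 and -3.13 on the C3H arrays and -2.18, -1.96 and -2.06 on the F1 arrays. At 2 h it stood at -0.92, -1.44 and -0.81 on the B6 arrays, -3.24, -2.60 and -3.12 on the C3H arrays and -2.60, -2.08 and -2.29 on the F1 arrays. At 24 h it stood at 0.05, 0.27 and 0.00 on the B6 arrays, -0.18, 0.18 and -0.08 on the C3H arrays and 0.00, 0.35 and 0.34 on the F1 arrays. B6 stood above both other strains in vehicle and at 2 h without overlap, F1 above C3H in vehicle, and F1 and C3H met at -2.60 at 2 h. At 24 h all 3 strains overlapped. The vehicle difference of C3H from B6 was -2.23 ± 0.18 (SE, adjusted p = 3.55e-09), so C3H had 21.3% of the B6 signal and F1 38.6%, beside 60.7% for the mean of the parents. Its 24 h change was 0.80 in B6, 2.90 in C3H and 2.30 in F1. The response differed from B6 by 2.10 ± 0.25 in C3H (adjusted p = 2.11e-05) and by 1.50 ± 0.25 in F1 (adjusted p = 0.00308). Bub1b was the 1 member called in the 24 h response of F1 against B6, where 0.892% of all genes were higher and 0.992% lower. That call was lost with normexp background correction, where 0 members were called. Of the 13 members called in the 24 h response of C3H against B6, 1 kept its call under every alternative tried.

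Pttg1, or securin, was the other gene with a large strain difference, but it was not evened out at 24 h. In vehicle it stood at 4.18, 3.97 and 4.01 on the B6 arrays, 1.42, 1.25 and 1.30 on the C3H arrays and 3.46, 3.29 and 3.32 on the F1 arrays. It fell a little at 2 h, to 3.55, 3.82 and 3.72 on the B6 arrays, 0.74, 0.91 and 0.76 on the C3H arrays and 3.10, 2.89 and 2.92 on the F1 arrays. At 24 h it stood at 3.46, 3.49 and 3.55 on the B6 arrays, 2.61, 2.74 and 2.45 on the C3H arrays and 3.22, 3.20 and 3.28 on the F1 arrays. The strains kept the same order, B6 above F1 above C3H, at each time, with no overlap. C3H vehicle had 15.1% of the B6 signal (-2.73 ± 0.09, SE, adjusted p = 1.59e-15) and F1 61.9%, beside 57.6% for the mean of the parents. At 2 h it fell by 0.36 in B6, 0.52 in C3H and 0.39 in F1 (SE 0.09, adjusted p at most 0.00125). At 24 h it had risen in C3H and fallen in B6, so the response of C3H exceeded that of B6 by 1.82 ± 0.12 (adjusted p = 1.53e-08) and the F1 minus C3H difference in response was -1.40 ± 0.12 (adjusted p = 2.69e-06). With normexp background correction 0 members were called in the F1 minus C3H response at 24 h, so the call of Pttg1 there was lost. Bub1b and Pttg1 were each measured by 1 probe, and whether a sequence difference between strains lies under it was not tested.

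Smc4, the condensin ATPase, had the reverse order. Its vehicle level in C3H was above that of B6 by 0.84 ± 0.08 (adjusted p = 2.2e-08), with F1 between at 0.50 above B6. The difference from B6 at 24 h was 0.43 for C3H. Of the 43 genes, 39 had a higher mean in C3H than in B6 vehicle and 40 a lower mean in C3H at 24 h, with medians of 0.27 and -0.27. The all-gene median in vehicle was 0.05, and the share of all genes on each side was not computed. The 43 genes were read on the same arrays, so these counts are not independent observations, and few of the vehicle differences were called. The calls of Bub1 and Ect2 in C3H vehicle (0.77 and 0.50) were not kept when single arrays were left out. The vehicle count of 5 was 14 without B6 vehicle replicate 1, 3 without any 1 of the other 5 vehicle arrays, and 15 without the 3 arrays that stood apart. B6 vehicle replicate 1 carried the highest mean of the 43 genes among vehicle arrays, -1.55. The same array was the highest of B6 vehicle in 3 lists of blood cell markers, but not in the erythroid list. The macrophage markers read 0.45 on it and -0.36 and -0.30 on replicates 2 and 3, and the neutrophil and eosinophil markers -3.30 against -4.99 and -4.69. For lymphocyte markers the mean level over 8 genes was -2.37 on it and ranged from -3.62 to -2.37 over the B6 vehicle arrays and from -3.75 to -3.55 over those of C3H. Erythroid markers read -1.48 on B6 vehicle replicate 1 and -1.49 and -1.29 on replicates 2 and 3, and -0.90 to -0.55 over C3H vehicle. The part of these cells in the difference was not tested.

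**Figure D5:**
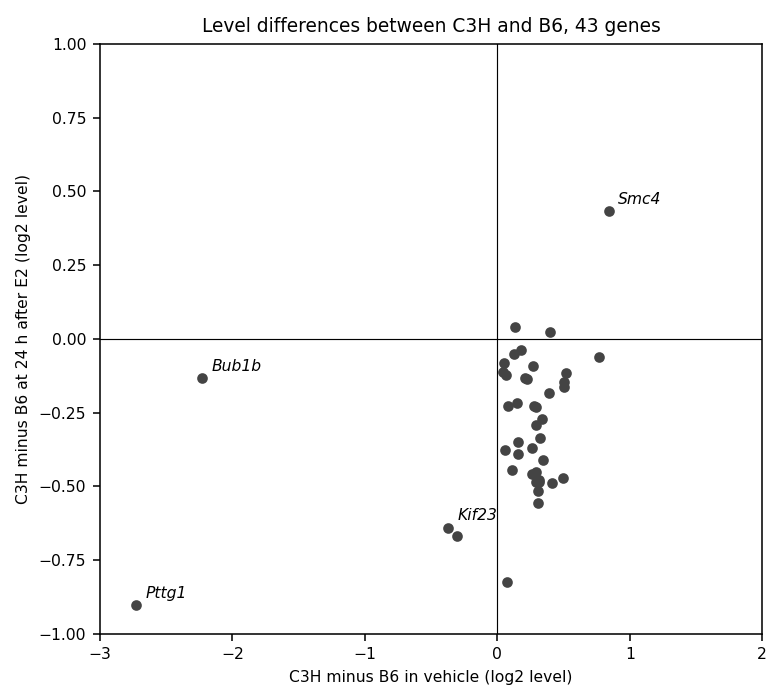
C3H minus B6 in log2 level for each of 43 genes, in vehicle (x axis) and at 24 h after E2 (y axis), from separate arrays. Bub1b is at -2.23 in vehicle and near 0 at 24 h, Pttg1 is lower at both, Smc4 is higher at both, and most others are slightly above 0 in vehicle and below 0 at 24 h.

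The 24 h rise was smaller in C3H than in B6 for part of the group. Of the 43 genes, 11 had a lower 24 h response in C3H and 2, Bub1b and Pttg1, a higher one, beside 12.7% and 5.83% of all genes. The 11 were Bub3, Mad2l1, Incenp, Cdca8, Cdc20, Kif22, Tpx2, Prc1, Ect2, Mki67 and Smc4, and their differences lay between -0.97 and -0.31. Ect2 had the largest. In B6, Ect2 stood at -1.92, -2.02 and -2.27 on the vehicle arrays and 0.98, 1.17 and 0.99 on the arrays of 24 h after E2. In C3H, Ect2 read -1.55, -1.62 and -1.56 on the vehicle arrays and 0.60, 0.64 and 0.49 on the arrays of 24 h after E2. In F1, Ect2 measured -2.05, -2.14 and -2.43 on the vehicle arrays and 0.63, 1.03 and 0.80 on the arrays of 24 h after E2. Each strain showed the same separation, with every 24 h array of Ect2 above vehicle. The response difference of Ect2 was -0.97 ± 0.24 (adjusted p = 0.0077), that of Mad2l1 -0.74 ± 0.16 (adjusted p = 0.00378), of Smc4 -0.41 ± 0.11 and of Bub3 -0.31 ± 0.08. These 4 kept their call when any 1 array was left out, as did Bub1b and Pttg1. The median difference of the 43 genes was -0.55 and that of all genes -0.05. The count of 13 depended on single arrays: it was 24 without B6 vehicle replicate 1, 6 without replicate 3 of either vehicle group, 7 without B6 vehicle replicate 2, C3H vehicle replicate 1, B6 E2 24 h replicate 2 or C3H E2 24 h replicate 3, 8 without B6 E2 24 h replicate 3 or C3H E2 24 h replicate 1, and 23 without the 3 arrays that stood apart. It was 6 with quantile normalisation, 4 on unscaled arrays and 1 with normexp. Epithelial markers differed in the same direction at 24 h: the mean level of 9 genes was 3.45 to 3.52 in B6, 3.16 to 3.31 in C3H and 3.39 to 3.60 in F1. Macrophage markers, 8 genes, stood at -0.44 to -0.11 in B6, 0.35 to 0.44 in C3H and -0.23 to 0.06 in F1. Other lists differed too: endothelial markers stood at 0.65 to 0.69 in B6, 1.00 to 1.06 in C3H and 0.73 to 0.89 in F1. Muscle markers stood at 5.41 to 5.52, 5.61 to 5.77 and 5.56 to 5.75. The 4 measured erythroid markers stood at -1.31 to -1.20, -0.62 to -0.34 and -1.04 to -0.74. Neutrophil and eosinophil markers stood at -5.26 to -4.06, -3.95 to -3.55 and -4.86 to -3.44. Stromal and lymphocyte markers overlapped between B6 and C3H. The part of any of these in the result was not tested. Strain and slide cannot be told apart in this response difference.

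The most vehicle differences were between F1 and C3H: 24 of the 43 genes were lower in F1 than in C3H and 2, Pttg1 and Bub1b, higher, beside 8.96% and 5.29% of all genes. Against B6 vehicle, 5 were lower and 1 higher, beside 7.38% and 5.15%. Top2a differed from C3H by -0.79 ± 0.17 in vehicle (adjusted p = 0.00376), Mki67 by -0.79 ± 0.19 and Nek2 by -0.91 ± 0.23. Hmmr, 1 of the 24, was at least 1.13-fold higher in C3H, since no F1 vehicle array was well above background. The Mki67 levels were 0.19, 0.07 and -0.23 on F1 vehicle arrays and 0.80, 0.75 and 0.84 on C3H vehicle arrays, with no overlap. The 24 h response was larger in F1 than in C3H for 11 genes (Incenp, Cdc20, Kif4, Tpx2, Kif20a, Prc1, Anln, Ect2, Mki67, Top2a and Ncapg) and smaller for Pttg1, beside 2.98% and 0.709% of all genes. The 11 differences lay between 0.56 and 1.19, and that of Anln turned to -0.36 with normexp. Both counts depended on single arrays: the vehicle count of 26 was 8 without F1 vehicle replicate 3, 16, 17 and 16 without each C3H vehicle array and 1 with normexp. The response count of 12 fell to 1 without C3H vehicle replicate 3, to 2 without C3H vehicle replicate 1, F1 vehicle replicate 3, C3H E2 24 h replicate 3 or F1 E2 24 h replicate 2, and to between 3 and 6 without F1 E2 24 h replicate 3, F1 vehicle replicates 1 or 2, C3H vehicle replicate 2 or C3H E2 24 h replicate 2. It was 19 without the 3 arrays that stood apart and 0 with normexp. Against B6 vehicle, the count of 6 was 15 without B6 vehicle replicate 3 and 0 with normexp. Pttg1, Bub1b and Smc4 kept their calls in all 3 vehicle comparisons whichever single array was left out. In the vehicle comparisons of F1 with B6 or C3H, and in the 24 h responses, strain cannot be told apart from slide.

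Genes around this group were read from lists of their own, to be set against all genes: at 24 h 30.8%, 27.1% and 31.8% of these were higher and 37.2%, 40% and 36.7% lower, and at 2 h 23.1%, 24.9% and 23.7% were higher and 33.1%, 35.4% and 35.4% lower, in the strain order of B6, C3H and F1. Of 11 mitotic cyclins, CDK1 and its regulators, 10, 9 and 9 rose at 24 h in B6, C3H and F1, and 0 fell. Ccnb1, the cyclin that drives entry into mitosis, changed by 4.18, 3.16 and 4.71 in the same order of strains. Ccnb2 changed by 3.63, 2.97 and 3.91, and Cdk1, the kinase both bind, by 3.28, 2.66 and 3.45. At 2 h, 2, 1 and 5 were higher and 3, 2 and 2 lower. Cks2, a small CDK-binding subunit, was the 1 of these that rose at 2 h in every strain, by 0.49, 0.47 and 0.68.

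Among 35 other kinetochore and checkpoint genes, 32, 28 and 31 rose at 24 h and 1, 2 and 2 fell, with medians of 1.45, 1.17 and 1.45. Ska1 (3.77, 2.96 and 4.02), Spc24 (3.54, 2.94 and 4.03) and Cenpm (3.41, 2.39 and 3.47) led, each a subunit of the inner or outer kinetochore. Hjurp, the chaperone that loads CENP-A, went the other way at -0.47, -0.47 and -0.57, though with the mean over its probes the B6 value was 0.02. At 2 h, 13, 13 and 12 of the 35 were lower, a share near that of all genes, and 4, 4 and 6 higher, a share below it. Ska3 (0.73, 0.52 and 0.85), Mis12 (0.41, 0.51 and 0.80), Mad2l1bp (0.40, 0.52 and 0.55) and Cenpt (0.32, 0.30 and 0.26) rose at 2 h in all 3 strains, though with normexp Ska3 turned to -0.47 in C3H and -0.63 in F1. Mad2l1bp encodes the protein that helps take Mad2 off its partners. All 4 were below 1 log2 unit, where Mad2l1 was above 4.

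Of 21 measured genes among 22 others of the spindle, centrosome and cytokinesis, 19, 18 and 19 rose at 24 h, and 1, 1 and 1 fell. Pbk, a mitotic kinase, led with 3.58, 2.44 and 3.93, ahead of the midbody protein Cep55 with 3.29, 2.74 and 3.84 and Depdc1a with 3.38, 2.62 and 3.74. Numa1, which anchors spindle poles and is made in non-dividing cells too, fell by 1.06, 0.99 and 0.96. Cit, the citron kinase of the midbody, was the 1 of them higher at 2 h in every strain, by 0.78, 1.04 and 1.25. At 2 h the list had 4, 1 and 11 higher and 2, 7 and 3 lower.

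Other condensin and cohesin genes moved less: of 13 measured, 7, 5 and 6 rose and 2, 2 and 2 fell at 24 h, with medians of 0.29, -0.01 and 0.18. Cdca5, or sororin, and the acetyltransferase Esco2, which act on cohesin in S phase, rose by 3.48, 2.71 and 3.84 and by 3.35, 2.34 and 3.65. The condensin I subunit Ncapd2 rose by 1.84, 1.41 and 1.90. The cohesin core genes Smc3 and Stag1 were called lower, Stag1 by -0.35, -0.45 and -0.46 and Smc3 by -0.14, -0.19 and -0.13, where Smc3 turned above 0 in B6 and F1 with median centring and in F1 on unscaled arrays or with normexp. Wapl, which releases cohesin, was higher at 2 h, by 0.62, 0.83 and 0.61. Core APC/C subunits listed with the coactivator Fzr1, 13 genes, had 9, 8 and 9 higher and 0, 3 and 1 lower at 24 h and medians of 0.31, 0.19 and 0.24. Their largest were Anapc1 (0.78, 0.52 and 0.64), Fzr1 (0.69, 0.48 and 0.74) and Cdc26 (0.47, 0.40 and 0.39), of which Anapc1 and Cdc26 were below 0 in each strain with the mean over their probes. Anapc10, Cdc16 and Cdc27 were higher at 2 h in every strain, Anapc10 by 0.48, 0.59 and 0.76, Cdc16 by 0.33, 0.29 and 0.31 and Cdc27 by 0.48, 0.42 and 0.42.

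Among 16 regulators of G2 and M transcription, 11, 10 and 11 rose and 3, 4 and 4 fell at 24 h. E2f8 rose most, by 3.53, 2.45 and 3.52, ahead of Foxm1, the factor that drives G2 and M genes, with 2.99, 2.21 and 3.01, and E2f1 with 2.74, 1.90 and 3.10. At 2 h the list had 9, 7 and 10 higher and 5, 5 and 5 lower, and it held a large early rise: Lin9, a MuvB subunit, rose by 2.12, 1.73 and 1.65 and was back at 0.16, -0.23 and -0.10 by 24 h. The E2F genes E2f4 (0.65, 0.90 and 0.81), E2f3 (0.42, 0.47 and 0.65) and E2f7 (0.37, 0.44 and 0.98) were also higher at 2 h in every strain, though with normexp E2f4 turned to -0.08 in F1 and E2f7 to -0.17 in C3H and -0.18 in F1. Also higher at 2 h were their partner Tfdp1 (0.49, 0.46 and 0.61), the CHR-binding MuvB subunit Lin54 (0.45, 0.75 and 0.64) and the pocket protein gene Rb1 (0.49, 0.22 and 0.29). At 24 h the MuvB subunit Lin52 (-0.89, -0.98 and -0.96), Rbl2 (-0.72, -0.50 and -0.50) and Rb1 (-0.39, -0.41 and -0.43) were lower in every strain.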

How the data were processed

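Total RNA of whole uterus was hybridised to 1-colour Agilent arrays with 45018 spots. Per the file headers, the authors extracted intensities with Feature Extraction 9.5.3.1, and the deposited processed signal intensity, background-subtracted and detrended within each array, was used; the deposited value table held the same values on all 27 arrays. Control spots and outlier flags were left out, spots of a probe averaged, and each array's 75th percentile of the log2 signal subtracted. A probe was kept if well above background on every array of at least 1 group (32901 of 41174), and a gene with several probes (7487 genes) was represented by the probe of highest mean level. Groups were fitted together in limma 3.58.1 (R 4.3.3) with an eBayes step, and p-values were Benjamini-Hochberg adjusted over 21866 genes; the fit was tested on simulated data. Python 3.11.15 made the tables (pandas 2.3.3, numpy 2.4.6) and figures (matplotlib 3.10.9).

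The 43 genes, the lists and the rule for naming genes were chosen with earlier results of these data known. Arrays are given one by one for Mad2l1 and Bub1b, for the largest and smallest mean 24 h change in each role class, for genes called at 2 h in all 3 strains and for the 6 genes with the smallest adjusted p in the C3H against B6 response at 24 h. From each related list, the 3 with the largest mean 24 h change and those called lower at 24 h or higher at 2 h in all 3 strains are named. Other genes given with values as examples were chosen after those were seen. Arrays lay on 7 slides, and slide was tried as a fixed and as a random block. The F1 arrays of 24 h were alone on their slide, and C3H vehicle arrays shared no slide with other C3H arrays. Slide and group therefore cannot be told apart for 2 h and 24 h in C3H, 24 h in F1 and F1 against B6 or C3H in vehicle. The same holds for the 24 h response differences and for the 2 h ones of C3H against B6 and F1 against C3H. Replicate numbers were tried as a block and did not pair the arrays.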

Additional observations from a re-analysis of the deposited data

Results flagged for a closer look

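Responses to E2 were compared between strains in limma as a difference of differences, adjusted over all 21866 genes. The 26 such differences called at 24 h were 13 in C3H minus B6, 1 in F1 minus B6 and 12 in F1 minus C3H. Some of the 43 genes were called in more than 1 comparison. Of all genes, 5.83% were higher and 12.7% lower in C3H minus B6. These shares were 0.892% and 0.992% in F1 minus B6 and 2.98% and 0.709% in F1 minus C3H. In C3H minus B6, the log2 difference of the 24 h response was 2.10 for Bub1b and 1.82 for Pttg1, the 2 genes low in C3H vehicle. It was below 0 for Ect2 (-0.97), Prc1 (-0.90), Kif22 (-0.86), Mki67 (-0.80), Cdc20 (-0.76), Mad2l1 (-0.74), Cdca8 (-0.72), Tpx2 (-0.63), Incenp (-0.43), Smc4 (-0.41) and Bub3 (-0.31). In F1 minus B6, Bub1b differed by 1.50. In F1 minus C3H, the difference was -1.40 for Pttg1 and above 0 for Prc1 (1.19), Mki67 (1.12), Ncapg (1.11), Kif20a (1.03), Kif4 (0.94), Ect2 (0.88), Top2a (0.88), Cdc20 (0.85), Anln (0.78), Tpx2 (0.75) and Incenp (0.56). Bub3 has probes that differ in sign at 24 h. The response of C3H enters both sets of differences, so they are not independent of each other. With normexp background correction the F1 minus C3H difference of Anln was -0.36. With 3 arrays a group, values of single genes were not tested for outliers.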

How the results depend on the processing

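Counts are of the 43 genes called. All 15 counts were recomputed under each alternative that could be fitted. Leaving out 1 array at a time gave 5 to 10 for 2 h in B6, 11 to 29 for 2 h in F1, 3 to 14 for C3H minus B6 in vehicle, 6 to 24 for their 24 h response, 4 to 15 for F1 minus B6 in vehicle, 8 to 21 for F1 minus C3H in vehicle and 1 to 12 for their 24 h response. At 24 h it gave 42 in each strain. Over all alternatives together, 32, 29 and 32 of the 42 calls at 24 h in B6, C3H and F1 were kept. Normexp background correction gave 2, 2 and 3 at 2 h in B6, C3H and F1, 3, 0 and 1 for the vehicle differences C3H minus B6, F1 minus B6 and F1 minus C3H, and 1, 0 and 0 for their 24 h responses. With no scaling, 2 h in F1 had 35, C3H minus B6 in vehicle 3 and their 24 h response 4. With quantile normalisation the 24 h responses of C3H minus B6, F1 minus B6 and F1 minus C3H had 6, 2 and 6. Median centring gave 6 and no filter on dim probes 7 for the 24 h response of F1 minus C3H. The mean over a gene's probes gave 1 for the 2 h response of C3H minus B6. Slide as a fixed term, estimable in 5 of 15 comparisons, gave 8 for 2 h in B6, slide 1 alone 3, and slide 6 alone 13 for 2 h in F1. An alternative chosen after seeing the data left out the 3 arrays that stood apart: 10 for 2 h in B6, 15 for C3H minus B6 in vehicle, 23 for their 24 h response and 19 for that of F1 minus C3H. The causes were not tested.

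With the replicate number as a block the counts were 6, 8 and 24 at 2 h in B6, C3H and F1, 42 at 24 h in each, 7 for C3H minus B6 in vehicle and 14 for their 24 h response, so no count moved by over 1.5 times. Same-numbered arrays did not pair: their deviations correlated between -0.26 and 0.34, and in 0 of 9 comparisons was every pair over 0.1.

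Of 9523 values under alternatives of the genes that the naming rule picks, 8895 kept direction and call, 447 lost the call, 140 gained it and 41 turned sign. Under normexp, 2 h in F1 turned to -0.45 (Bub1), -0.18 (Melk), -1.03 (Hmmr), -0.41 (Ccnb1), -0.63 (Ska3), -0.44 (Cep55), -0.92 (Depdc1a), 0.0216 (Stag1), -0.71 (E2f8), -0.32 (Foxm1), -0.0803 (E2f4) and -0.18 (E2f7), and 2 h in C3H to -0.47 (Ska3) and -0.17 (E2f7). It also gave 0.11 for Ndc80 in F1 minus B6 vehicle, 0.13 for Hmmr in F1 minus C3H vehicle, and at 24 h in F1 0.0511 for Smc3 and -0.23 for E2f4. With probes averaged, 24 h values in B6, C3H and F1 became -0.0248, -0.12 and -0.0699 for Bub3, -0.17, -0.20 and -0.30 for Anapc1, -0.59, -0.38 and -0.43 for Cdc26 and -0.34, -0.44 and -0.52 for Anapc10. In C3H and F1 they became -0.00367 and -0.16 for Wapl, -0.0763 and -0.0796 for Cdc16 and -0.17 and -0.47 for Lin54, and Hjurp in B6 became 0.0204. Smc3 at 24 h became 0.10 in B6 and 0.0666 in F1 with median centring and 0.0365 in F1 with no scaling, and Stag1 at 2 h in F1 0.0797 with no scaling. Of called members outside the rule, normexp turned Aurkb (-0.65), Espl1 (-0.67), Kif11 (-0.70), Kif4 (-0.22) and Ncaph (-0.41) at 2 h in F1, Ttk (0.18) and Anln (0.13) in F1 minus C3H vehicle and Anln (-0.36) in their 24 h response. Signal over background limits Hmmr, Ttk and Cdc25c in vehicle.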
